A study of Rattus norvegicus with 5 samples.

Results

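The ion channel genes were taken from the rat expression array by symbol: every gene whose symbol starts with Kcn (potassium channels), with Cacn (voltage-gated calcium channels), or with Scn and a digit (voltage-gated sodium channels). The array measures a gene by a probe set, a group of short oligonucleotides that match its transcript. The rule found 109 channel genes with 155 probe sets, of 10411 named genes and 15866 probe sets in all. They comprised 73 potassium, 24 calcium and 12 sodium channel genes. Probe sets whose signal averaged at least 200 over the 5 arrays were analysed, which left 29 channel genes with 36 probe sets. The other 80 genes are named only.

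Total RNA was profiled from the parental INS-1 line, insulin-secreting cells from a rat beta cell tumour, and from 4 clones derived from it. All 4 clones carry an FRT site, a landing site for Flp recombinase, and a tetracycline repressor that can hold an inserted gene off; their labels name no inserted gene and no treatment. Clones 1-1.2 and 1-1.16 formed set 1-1, and clones 5-3.14 and 5-3.19 formed set 5-3. What the set names stand for, and whether the clones of a set share an origin, is not given in the sources used here. Each clone and the parental line had 1 array, and each engineered line is 1 clone.

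Ion channels turn glucose metabolism into insulin release. In a beta cell, potassium channels hold the membrane at rest, and the ATP-sensitive ones close when glucose is burnt. The membrane then depolarises, voltage-gated sodium and calcium channels open, and the calcium that enters triggers the fusion of insulin granules. Voltage-gated and calcium-activated potassium channels end each action potential.

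The channel probe sets spanned a wide range of array-to-array spread. The highest of the 5 arrays was 2.10 times the lowest at the median channel probe set, against 1.62 times at the median of all 9570 probe sets past the filter, and 23 of the 36 were above that median. Among probe sets with a mean signal of at least 500, which leaves 15 channel probe sets, the medians were 1.75 and 1.58. These differences were not tested. The genes with the widest spread were the sodium channel genes Scn7a (6.88-fold from lowest to highest array) and Scn3a (4.89-fold), the calcium-activated potassium channel gene Kcnma1 (5.21-fold), Kcnip1 (4.89-fold), Kcnk2 (4.19-fold) and Kcnip3 (4.11-fold). The lowest array was under 200 for Kcnma1 (107), Kcnip1 (152), Kcnk2 (105) and Kcnip3 (82.4). The size of these folds is therefore not told from background. At the other end, the calcium channel subunit gene Cacng2 (1.31-fold) and the potassium channel genes Kcnh2 and Kcnj4 (1.34-fold each) varied least. Folds are ratios of signal + 21.8, the offset added before taking log2, which damps the folds of dim probe sets. No channel probe set passed a test across the array: with limma, adjusted over all 9570 probe sets at a threshold of 0.05, none of the 36 was called between the clone sets or between the clones and the parental line. Values below are therefore given as levels, and the p-values reflect only the spread between these clones.

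**Figure D1:**
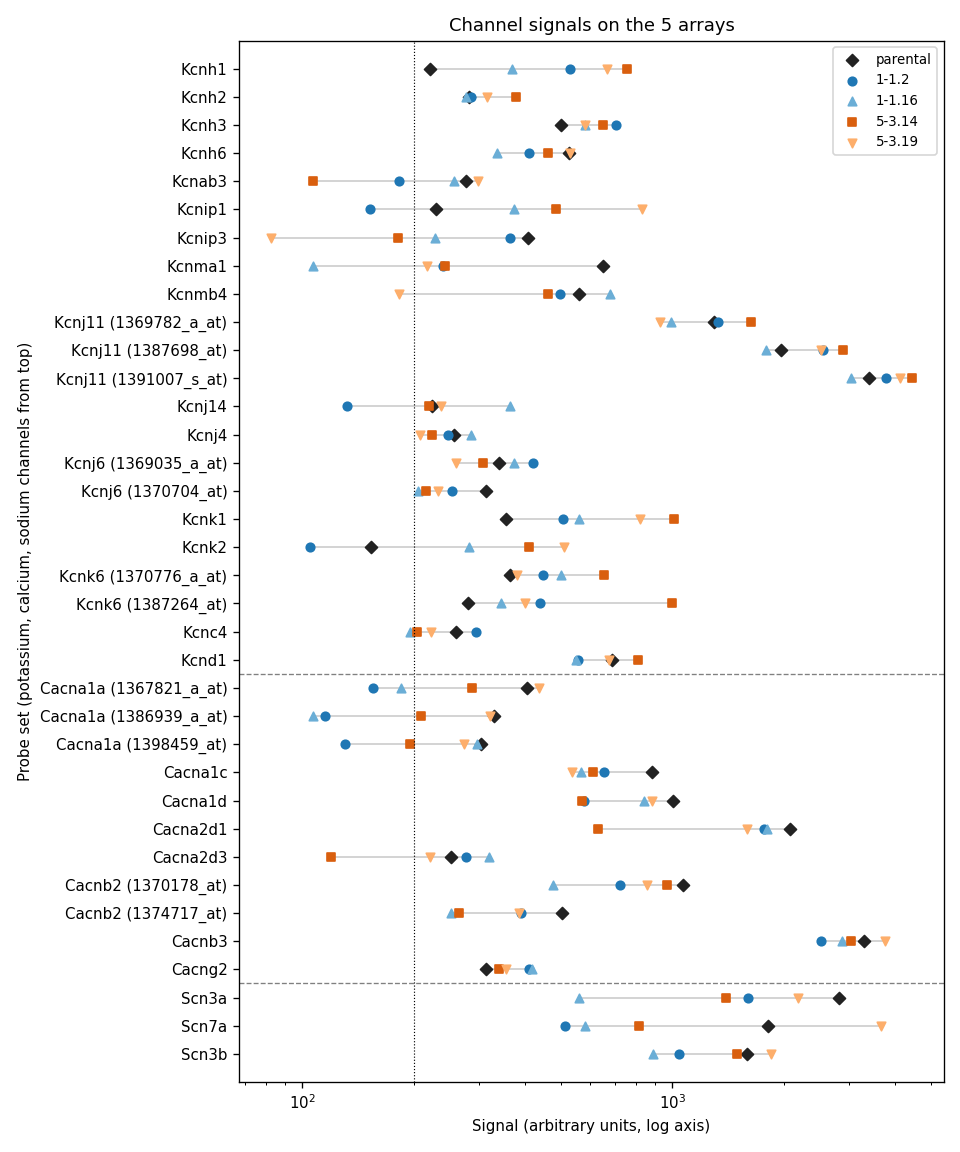
Signal (arbitrary units, log axis) of each of the 36 channel probe sets on the 5 arrays, with 1 marker per array, a grey line from the lowest to the highest array and the signal limit of 200 as a dotted line. Scn7a spans 514 to 3667, with clone 5-3.19 far to the right, and Kcnma1 has the parental array at 648 with all 4 clones between 107 and 244.

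The level on these arrays is known relative to the array's scale only. Every array had a trimmed mean signal of 1000.2 to 1000.3, as values already scaled to a common level would have, and the median signal was 342 to 372. These values cannot show whether the arrays differed in overall level before any such scaling. Poly(A) control transcripts, which are added to the RNA before labelling, were 1.27-fold (phe) to 3.57-fold (lys) brighter on the parental array than on the mean of the clones, and the 18 hybridisation control probe sets were at 0.797 of the clone level. How the parental array was handled and what the parental cells expressed cannot be told apart. Of the beta cell marker list, 7 of 10 genes were measured and all 7 were above the limit of 200 on average; their summed level was 117180.3 on the parental array, 71144 to 118451 in set 1-1 and 84231 to 85568.5 in set 5-3. The insulin gene Ins1 read 34381 to 42217 over the 5 arrays. The other insulin gene, Ins2, did not hold level: it read 28816 on the parental array, 30224 in 1-1.2, 5381 in 1-1.16, 3953 in 5-3.14 and 4303 in 5-3.19. Its part in the channel levels was not tested. The delta, PP, acinar, duct, endothelial and leukocyte markers that were measured all averaged below 200. Of 5 fibroblast markers, Thy1 alone was above it.

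Most channel genes gave little signal. Of the 155 channel probe sets, 23.2% reached the limit of 200, against 60.3% of all probe sets on the array. Among the 119 that did not, 106 were below 200 on each of the 5 arrays and 13 reached it on at least 1; their median mean signal was 62.7. The probe sets nearest the limit were 1 for Cacna1a at a mean of 217 inside it and 1 for Kcna4 at 199 outside it. A low signal does not show that a gene is silent, because a probe set can bind its transcript poorly and no detection calls were used.

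Whole subfamilies were dim. None of the 7 genes for modulatory voltage-gated potassium channel subunits, which make no current of their own (Kcng2, Kcng3, Kcns1, Kcns2, Kcns3, Kcnv1 and Kcnv2), passed the limit. Of the 13 Shaker, Shab, Shaw and Shal type pore genes, Kcnc4 and Kcnd1 passed; Kcna1 to Kcna6, Kcnb2, Kcnc1, Kcnc2, Kcnd2 and Kcnd3 were dim. Among inward rectifiers the dim genes were Kcnj1, Kcnj2, Kcnj3, Kcnj5, Kcnj8, Kcnj9, Kcnj10, Kcnj12, Kcnj13, Kcnj15 and Kcnj16. Of the tandem-pore leak channels they were Kcnk3, Kcnk4, Kcnk5, Kcnk9, Kcnk10, Kcnk12, Kcnk13 and Kcnk15. The dim genes further included Kcnq1 and Kcnq3, Kcnh4, Kcnh5, Kcnh7 and Kcnh8, the accessory genes Kcne1, Kcne2, Kcne3, Kcnab1, Kcnab2, Kcnip2, Kcnip4 and Kcnmb1, and Kcnn1, Kcnn3, Kcnn4 and Kcnt1, whose channels open with intracellular calcium or sodium.

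Among calcium channel pore genes, those of the N, R and T types (Cacna1b, Cacna1e, Cacna1g, Cacna1h and Cacna1i) and the retinal and skeletal muscle L-type genes Cacna1f and Cacna1s were dim, as were the accessory genes Cacnb1, Cacnb4, Cacng1, Cacng3, Cacng4, Cacng5, Cacng6, Cacng7 and Cacng8. Of the sodium channel genes, Scn1a, Scn2a, Scn4a, Scn8a, Scn9a, Scn10a, Scn11a, Scn2b and Scn4b were dim. What remained above the limit was 18 potassium, 8 calcium and 3 sodium channel genes. Of their 36 probe sets, 24 were at or above 200 on each of the 5 arrays.

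The DNA before the start of 4 of these genes is printed as context: Scn7a, Scn3a and Kcnma1 because they differed most from array to array, and Kcnh6 because of the motif it holds. The sequences are those of RefSeq for the assembly GRCr8, 250 bases before the annotated start, 5′ to 3′ on the gene's strand. They lie at chr3:71846285-71846534 (minus strand), chr3:70666199-70666448 (minus strand), chr15:351675-351924 (plus strand) and chr10:91449401-91449650 (plus strand). Capitals mark matches, on either strand, to the TATA box TATAAA, the GC box GGGCGG, the cyclic AMP element TGACGTCA, and the left and right parts of the element bound by the neuronal gene repressor REST, TTCAGCACC and GGACAGC.
Scn7a: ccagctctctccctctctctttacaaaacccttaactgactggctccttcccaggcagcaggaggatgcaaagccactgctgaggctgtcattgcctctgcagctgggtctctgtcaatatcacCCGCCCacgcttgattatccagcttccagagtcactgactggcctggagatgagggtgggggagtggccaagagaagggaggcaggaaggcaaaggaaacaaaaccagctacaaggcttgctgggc
Scn3a: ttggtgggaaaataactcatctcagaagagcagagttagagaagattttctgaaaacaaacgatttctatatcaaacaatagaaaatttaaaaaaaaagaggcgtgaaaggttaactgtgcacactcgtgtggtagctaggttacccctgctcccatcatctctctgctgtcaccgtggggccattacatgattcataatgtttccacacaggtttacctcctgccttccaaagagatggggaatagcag
Kcnma1: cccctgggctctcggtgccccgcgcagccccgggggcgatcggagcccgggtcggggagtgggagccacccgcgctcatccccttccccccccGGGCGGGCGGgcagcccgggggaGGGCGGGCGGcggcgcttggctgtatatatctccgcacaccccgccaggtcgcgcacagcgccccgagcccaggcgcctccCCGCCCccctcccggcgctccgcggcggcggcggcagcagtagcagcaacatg
Kcnh6: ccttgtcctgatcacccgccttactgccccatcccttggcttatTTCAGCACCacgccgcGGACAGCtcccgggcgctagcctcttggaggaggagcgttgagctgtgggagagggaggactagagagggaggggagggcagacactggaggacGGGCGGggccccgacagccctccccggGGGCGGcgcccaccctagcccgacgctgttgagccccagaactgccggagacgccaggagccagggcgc
The 4 sequences differ in make-up. Over the full windows of 300 bases, which run 50 bases past the start, G and C made up 56.0% for Scn7a, 43.3% for Scn3a, 78.3% for Kcnma1 and 67.7% for Kcnh6. Scn7a held 1 GC box, Scn3a none of the 5 motifs, Kcnma1 5 GC boxes (some overlapping) and Kcnh6 2. In Kcnh6, which encodes a potassium channel of the erg group, the left and right parts of the REST element stood 7 bases apart. The windows of Scn3a and Scn7a lie 1180086 bases apart on chromosome 3.

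Promoter windows were found for 76 of the 109 channel genes, 85 windows in all, since some genes have several starts. A GC box stood in 46 of the 85 (54.1%), against 33.1% of 33469 windows over all genes, and a TATA box in 4 (4.71%), against 14.2%. The channel windows were also richer in G and C, with a median of 61.7% against 51.7%. Among windows of genes above the signal limit, 17 of 27 held a GC box, and among those of dim genes 29 of 58. The left part of the REST element was in 2 channel windows (2.35%, against 0.356% of all) and the right part in 9 (10.6%, against 6.59%). No channel window held the cyclic AMP element, which 1.83% of all windows hold. These counts describe letters in a window, and no binding was measured.

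Inward rectifiers pass potassium into the cell more easily than out and hold the resting potential. Kcnj11 encodes the pore of the ATP-sensitive potassium channel, the glucose-controlled channel of the beta cell, and had 3 probe sets. Probe set 1391007_s_at read 3414 on the parental array, 3789 in 1-1.2, 3042 in 1-1.16, 4442 in 5-3.14 and 4118 in 5-3.19. Probe set 1387698_at read 1963 on the parental array, 2557 in 1-1.2, 1792 in 1-1.16, 2891 in 5-3.14 and 2524 in 5-3.19. Probe set 1369782_a_at read 1293 on the parental array, 1329 in 1-1.2, 992 in 1-1.16, 1635 in 5-3.14 and 928 in 5-3.19. Clone 5-3.14 was the highest array on all 3 probe sets, but clone 5-3.19 was the lowest on the last and above the parental array on the others, so the probe sets did not give 1 order. Between the sets the fitted log2 difference (set 5-3 minus set 1-1) was 0.33 ± 0.21 (SE), 0.33 ± 0.25 (SE) and 0.10 ± 0.32 (SE), with limma adjusted p of 0.535, 0.601 and 0.919. Against the parental array the third had the opposite sign to the others (clones minus parental −0.12, against 0.16 and 0.29). Abcc8, which encodes the sulfonylurea receptor that surrounds this pore, read 2573 on the parental array, 3012 in 1-1.2, 1999 in 1-1.16, 2355 in 5-3.14 and 2474 in 5-3.19.

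Of the other inward rectifier genes, Kcnj6, whose channel opens with G proteins, had a probe set at 261 to 420.0 over the 5 arrays and another at 206 to 314. Kcnj4 and Kcnj14, which encode strong inward rectifiers, read 208 to 286 and 132 to 365. For Kcnj14 both ends of its range were clones of set 1-1, with 1-1.2 lowest and 1-1.16 highest.

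Tandem-pore channels carry the leak current at rest. Kcnk1, chosen for full values after they were seen, as were Kcnk2, Kcnh1, Kcnip1 and Kcnip3, read 355 on the parental array, 508 in 1-1.2, 561 in 1-1.16, 1009 in 5-3.14 and 819 in 5-3.19. Every clone was above the parental array, and both clones of set 5-3 were above both of set 1-1. The set difference was 0.74 ± 0.24 (SE) with an unadjusted p of 0.0169 and a limma adjusted p of 0.215; the clones were 0.93 ± 0.41 (SE) above the parental array, with an adjusted p of 1.00. Kcnk6, a weakly conducting member of this family, had 2 probe sets. Probe set 1387264_at read 280.2 on the parental array, 439 in 1-1.2, 345 in 1-1.16, 997 in 5-3.14 and 401 in 5-3.19. Clone 5-3.14 stood 2.21-fold above the next array there. Probe set 1370776_a_at read 364 on the parental array, 447 in 1-1.2, 501 in 1-1.16, 653 in 5-3.14 and 381 in 5-3.19. Both put the parental array lowest and 5-3.14 highest, but by 3.37-fold and 1.75-fold, so they differ on how far 5-3.14 stood out.

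Kcnk2 encodes a leak channel opened by stretch and lipids, and Kcnip1 a calcium-binding subunit of Shal-type potassium channels. Kcnk2 read 153 on the parental array, 105 in 1-1.2, 282 in 1-1.16, 411 in 5-3.14 and 509.8 in 5-3.19. Kcnip1 read 229.9 on the parental array, 152 in 1-1.2, 372 in 1-1.16, 485 in 5-3.14 and 829 in 5-3.19. The other Kcnip1 probe set was dim, at 5.1 to 13.4 over the 5 arrays. As the values stand, Kcnk2 and the brighter Kcnip1 probe set had 1-1.2 lowest, then the parental array, 1-1.16, 5-3.14 and 5-3.19. The lowest 2 values of Kcnk2 and the lowest of Kcnip1 were under 200, so the order at that end is not told from background. Kcnk2 averaged under 200 outside set 5-3, so it passed the limit only through the 5-3 clones, where it was high. The set differences were 1.29 ± 0.45 (SE) and 1.32 ± 0.46 (SE), with limma adjusted p of 0.250 and 0.245. They moved with the 1-1 clones: without 1-1.2 they were 0.66 and 0.74, and without 1-1.16 they were 1.92 and 1.91. Gcg, which encodes glucagon, the hormone of alpha cells, had this order too, at 6875 on the parental array, 2064 in 1-1.2, 17772 in 1-1.16, 20549.5 in 5-3.14 and 24434 in 5-3.19. Of all probe sets past the filter, 0.993% had the order of Gcg and 1.18% its reverse; of the 36 channel probe sets, Kcnk2 and Kcnip1 had it and none the reverse. Gcg was the 1 alpha cell marker measured of 4 listed, so the list's summed level is that of Gcg. Its part in the levels of Kcnk2 and Kcnip1 was not tested.

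**Figure D2:**
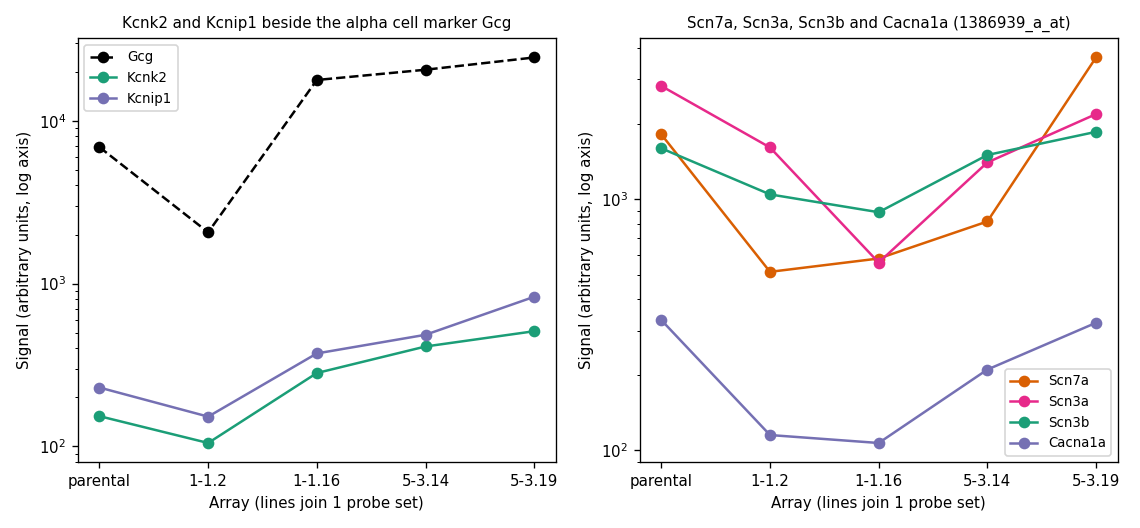
Signal (arbitrary units, log axis) on the 5 arrays, with lines joining the arrays of 1 probe set. At left, Kcnk2 and Kcnip1 have, as the values stand, the same order of arrays as the glucagon gene Gcg, with 5-3.19 highest. Their lowest values are under 200, so the order at that end is not told from background. At right, Scn7a, Scn3a, Scn3b and Cacna1a (1386939_a_at) have the parental array and 5-3.19 as the highest arrays. The Cacna1a probe set averaged under 200 on the other arrays, so it passed the limit only through those arrays.

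Voltage-gated potassium channels repolarise the cell. Kcnd1, a Shal-type gene whose channel carries a rapidly inactivating current, read 551 to 809.9, with 5-3.14 highest, and Kcnc4, a Shaw-type gene, read 196 to 296. The ether-à-go-go genes gave 4 probe sets above the limit. Kcnh1 encodes the channel that gave the group its name and read 222 on the parental array, 528 in 1-1.2, 368 in 1-1.16, 757 in 5-3.14 and 668 in 5-3.19. The parental array was lowest and both 5-3 clones were above both 1-1 clones. The clones were 1.26 ± 0.41 (SE) above the parental array on the log2 scale, with an unadjusted p of 0.0189 and a limma adjusted p of 1.00; the set difference was 0.66 ± 0.27 (SE), with an adjusted p of 0.320, and 0.41 without 1-1.16. The erg genes Kcnh2 and Kcnh6, whose current is slow to close on repolarisation, read 276 to 377 and 337 to 529, and Kcnh3 read 499.9 to 707. For Kcnh3 the parental array was again the lowest.

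Of the accessory genes, Kcnip3 encodes a calcium sensor that binds Shal-type channels and is also known as a transcriptional repressor. Kcnip3 read 407 on the parental array, 364 in 1-1.2, 229 in 1-1.16, 181 in 5-3.14 and 82.4 in 5-3.19. The parental array was highest. Both 5-3 clones were under 200, so Kcnip3 passed the limit only through the other arrays. The order and size on the low side, and with them its fold range, are not told from background. The other Kcnip3 probe set was dim. Kcnab3, a cytoplasmic beta subunit gene, read 107 to 298, with the 5-3 clones at both ends of the range.

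The large-conductance calcium-activated potassium channel opens with both calcium and depolarisation. Kcnma1 encodes its pore and read 648 on the parental array, 241 in 1-1.2, 107 in 1-1.16, 244 in 5-3.14 and 217 in 5-3.19. The parental array stood 2.52-fold above the nearest clone, and the clones averaged 202 ± 64.6 (SD, n = 4). All 4 clones were below this 1 array, as they were for 19.6% of all probe sets. Clone 1-1.16 was under 200, so the size on that side is not told from background. The comparison also rests on the parental array with its brighter poly(A) controls. The fitted log2 difference of the clones from the parental array was −1.64 ± 0.48 (SE), with an unadjusted p of 0.0120 and a limma adjusted p of 1.00. Between the sets the difference was 0.45 ± 0.40 (SE), with an adjusted p of 0.662. Its 2 other probe sets were dim. Kcnmb4, which encodes a beta subunit that slows this channel and changes its calcium sensitivity, read 560.0 on the parental array, 497 in 1-1.2, 680.0 in 1-1.16, 463 in 5-3.14 and 183 in 5-3.19. Here 5-3.19 stood alone at the bottom, 2.37-fold under the next array, and the parental array lay among the clones. The set difference for Kcnmb4 was −0.94 ± 0.43 (SE), with an adjusted p of 0.385. It was −0.32 without 5-3.19 (adjusted p = 0.666) and −1.56 without 5-3.14 (adjusted p = 0.0529).

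The calcium channel genes were mostly lower in the clones than on the parental array. Of 11 probe sets above the limit, 10 had a fitted difference below 0 and 1, for Cacng2, above it, with a median of −0.54 on the log2 scale, against a median of 0.01 over all probe sets and 49.0% of all below 0. The split was 10 of 11 under median centring, quantile normalization and cyclic loess too. By clone, 9, 9, 10 and 8 of the 11 were below the parental array in 1-1.2, 1-1.16, 5-3.14 and 5-3.19. None of the 11 passed limma's test, and all of these comparisons share the parental array with its brighter poly(A) controls. Probe sets of 1 gene are not independent, and the 11 stand for 8 genes.

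Cacna1c and Cacna1d encode the pores of the L-type channels that carry a large part of the calcium current that triggers insulin release. Cacna1c read 881 on the parental array, 652 in 1-1.2, 566 in 1-1.16, 612 in 5-3.14 and 536 in 5-3.19. All 4 clones were below the parental array and averaged 592 ± 51.0 (SD, n = 4), a fitted difference of −0.56 ± 0.26 (SE) with an unadjusted p of 0.0671 and a limma adjusted p of 1.00. Cacna1d read 1007 on the parental array, 577 in 1-1.2, 840.3 in 1-1.16, 571 in 5-3.14 and 881 in 5-3.19. The clones again lay below the parental array, but 1-1.2 and 5-3.14 made a lower pair and 1-1.16 and 5-3.19 an upper pair, so the sets overlapped fully (5-3 minus 1-1 0.03 ± 0.31 (SE), limma adjusted p = 0.980). The other probe sets of Cacna1c and Cacna1d were dim.

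Cacna1a encodes the pore of the P/Q-type channel, best known from nerve terminals and also active in beta cells. Its 4 probe sets included 3 above the limit. Probe set 1367821_a_at read 406 on the parental array, 155 in 1-1.2, 185 in 1-1.16, 287 in 5-3.14 and 438 in 5-3.19. Probe set 1386939_a_at read 330.4 on the parental array, 115 in 1-1.2, 107 in 1-1.16, 209.9 in 5-3.14 and 322 in 5-3.19. Both were under 200 in the 1-1 clones and passed the limit only through the other arrays, so the low side is not told from background and no size is given for the set difference. Clone 5-3.19 was close to the parental array on both. Probe set 1398459_at read 304 on the parental array, 131 in 1-1.2, 296 in 1-1.16, 196 in 5-3.14 and 274 in 5-3.19. On it clone 1-1.16 was near the parental level and the sets overlapped, with a difference of 0.21 ± 0.43 (SE) (adjusted p = 0.872). The fourth was dim.

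The accessory subunits of calcium channels carry the pore to the membrane and tune its gating. Cacna2d1, whose product is the alpha-2-delta subunit bound by gabapentin, read 2078 on the parental array, 1765 in 1-1.2, 1807 in 1-1.16, 630.4 in 5-3.14 and 1593 in 5-3.19. Clone 5-3.14 alone was low, 2.48-fold under the next array, and the other 4 arrays lay within 1593 to 2078. The set difference was −0.82 ± 0.41 (SE), with a limma adjusted p of 0.436; without 5-3.14 it was −0.16 (adjusted p = 0.801). Without 5-3.19 it was −1.47 (adjusted p = 0.0285), but 5-3.14 is then a lone clone assumed to vary like set 1-1, and in that fit 1.5% of all probe sets were called lower. Its relative Cacna2d3 read 119.7 to 321, with 5-3.14 lowest as well. Cacnb3, which encodes a cytoplasmic beta subunit, read 3296 on the parental array, 2532 in 1-1.2, 2878 in 1-1.16, 3046 in 5-3.14 and 3771 in 5-3.19. It varied 1.49-fold in all, and the sets lay next to each other without a gap beyond 1.06-fold (difference 0.33 ± 0.22 (SE), adjusted p = 0.556). Cacnb2, another beta subunit gene, had probe sets at 477 to 1071 and 252 to 504, both with the parental array highest and 1-1.16 lowest. Cacng2, which encodes stargazin, a partner of glutamate receptors as well, read 313 to 418, with the parental array lowest.

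Voltage-gated sodium channels give the fast upstroke of the action potential. All 3 sodium channel genes above the limit had fitted differences below 0 for the clones against the parental array. So had 49.0% of all probe sets. All 3 were above 0 for set 5-3 against set 1-1, where 45.8% of all were. By clone, 5-3.19 was above the parental array for 2 of the 3, Scn7a and Scn3b. Scn3a, which encodes a fast channel of neurons and endocrine cells, read 2823 on the parental array, 1607 in 1-1.2, 559.8 in 1-1.16, 1401 in 5-3.14 and 2182 in 5-3.19. The parental array was highest and clone 1-1.16 stood 2.45-fold below the next array. The clones differed from the parental array by −1.12 ± 0.66 (SE) (limma unadjusted p = 0.133, adjusted p = 1.00), and the sets by 0.86 ± 0.49 (SE) (adjusted p = 0.477). The set difference turned on the 1-1 clones, at 0.12 without 1-1.16 and 1.61 without 1-1.2; the difference from the parental array was −0.72 without 1-1.16.

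Scn7a encodes an atypical family member known as a sensor of extracellular sodium rather than of voltage. Scn7a read 1812 on the parental array, 514 in 1-1.2, 581 in 1-1.16, 816 in 5-3.14 and 3667 in 5-3.19. Clone 5-3.19 was 2.01-fold above the next array, the parental one, and the other clones lay between 514 and 816. The set difference was 1.63 ± 0.62 (SE), with an unadjusted p of 0.0365 and a limma adjusted p of 0.290. It rested on that clone: without 5-3.19 the difference was 0.56 (adjusted p = 0.314). Without 5-3.14 it was 2.70 (adjusted p = 0.00462), but set 5-3 is then a lone clone assumed to vary like set 1-1, and in that fit 1.33% of all probe sets were called higher. Scn3b encodes a beta subunit that anchors and modulates the pore, and read 1595 on the parental array, 1046 in 1-1.2, 888 in 1-1.16, 1500.0 in 5-3.14 and 1855 in 5-3.19. The 5-3 clones were above the 1-1 clones, by 0.78 ± 0.23 (SE), with an unadjusted p of 0.0130; its limma adjusted p of 0.201 was the lowest of the 36.

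**Figure D3:**
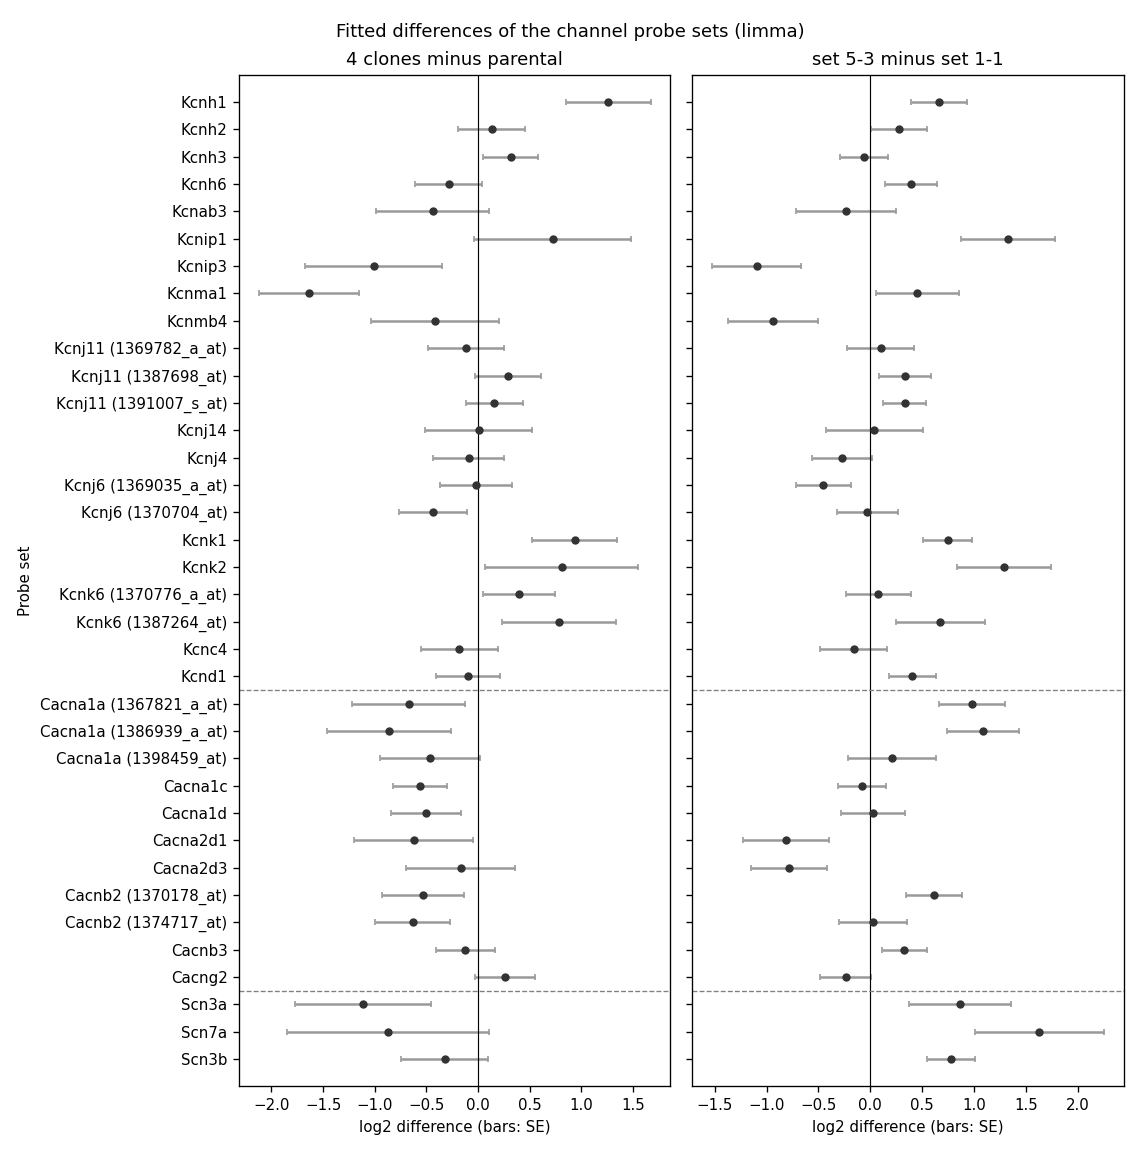
Fitted log2 differences from limma for the 36 channel probe sets, with bars of 1 SE: the 4 clones minus the parental array at left, set 5-3 minus set 1-1 at right. Of the calcium channel probe sets (middle block) 10 of 11 lie left of 0 at left, and all 3 sodium channel probe sets (bottom block) lie right of 0 at right; none passed the adjusted threshold.

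Between the clone sets, 24 of the 36 channel probe sets had a fitted difference above 0 and 12 below, with a median of 0.24, while over all probe sets the median was −0.04 and 45.8% lay above 0. Limma called 0.209% of all probe sets higher and 0.23% lower in set 5-3, and no channel probe set in either direction. At an unadjusted p below 0.05, 8 channel probe sets were higher (2 of Cacna1a, and Kcnh1, Kcnip1, Kcnk1, Kcnk2, Scn3b and Scn7a), against 7.98% of all probe sets, and 1 was lower (Kcnip3), against 6.99% of all. Both Cacna1a probe sets and Kcnip3 were under 200 throughout the lower set and had passed the limit through the other arrays. Kcnk2 averaged 194 in set 1-1 and read 153 on the parental array, so it passed the limit only through the 5-3 clones. Both 5-3 clones were above both 1-1 clones for 14 of the 36, a separation that 22% of all probe sets showed, and below for 7, which 24.6% of all showed. By ion, the differences were above 0 for 14 of 22 potassium, 7 of 11 calcium and 3 of 3 sodium channel probe sets. Where a gene had several probe sets (Cacna1a, Cacnb2, Kcnj11, Kcnj6 and Kcnk6), all 9 pairs of them had the same sign between the sets. Pairs from 1 gene are not independent. In some pairs 1 difference was near 0, as for Cacnb2 (0.61 and 0.02) and Kcnj6 (−0.45 and −0.03).

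Between the clones and the parental line, 12 of the 36 were above 0 and 24 below, with a median of −0.17. The potassium channel probe sets were split 11 to 11, or 12 above and 10 below under the other scalings. Limma called 0% of all probe sets higher and 0% lower, and no channel probe set in either direction. At an unadjusted p below 0.05, Kcnh1 was higher, against 1.56% of all, and Kcnma1 lower, against 2.16% of all. All 4 clones were above the parental array for 6 channel probe sets (Cacng2, Kcnh1, Kcnh3, Kcnk1 and both of Kcnk6), where 18.4% of all probe sets were. They were below it for 11, where 19.6% of all were. These were Cacna1c, Cacna1d, 2 of the 3 Cacna1a probe sets above the limit, both of Cacnb2, and Cacna2d1, Kcnip3, Kcnj6, Kcnma1 and Scn3a. For those 2 of Cacna1a the nearest clone was only 1.02-fold and 1.03-fold lower. On the third, 5-3.19 was above the parental array.

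Single clones can be set against the parental array only by size, with no test. In 1-1.2, 1 channel probe set was at least 2-fold above the parental array (1.8% of all were) and 5 at least 2-fold below (3.62% of all). In 1-1.16, 0 were above (3.38% of all) and 6 below (4.65% of all). In 5-3.14 the counts were 5 above (3.45% of all) and 5 below (5.86% of all). In 5-3.19 they were 5 above (2.68% of all) and 3 below (2.76% of all). Kcnma1 was among the lower ones in each clone. In 1-1.2 the others were Scn7a and every Cacna1a probe set above the limit, which read 115 to 155. In 1-1.16, Cacna1a probe sets 1367821_a_at and 1386939_a_at (185 and 107) and Kcnma1 (107) were under 200. So were Kcnab3 and Kcnip3 in 5-3.14, Kcnip3 and Kcnmb4 in 5-3.19, and Kcnk2 on the parental array. Folds that rest on a value under 200 are not told from background. Kcnh1 was among the higher ones in 1-1.2, 5-3.14 and 5-3.19; Kcnip1, Kcnk1 and Kcnk2 were in both 5-3 clones; Scn7a was lower in 3 clones and higher in 5-3.19.

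**Figure D4:**
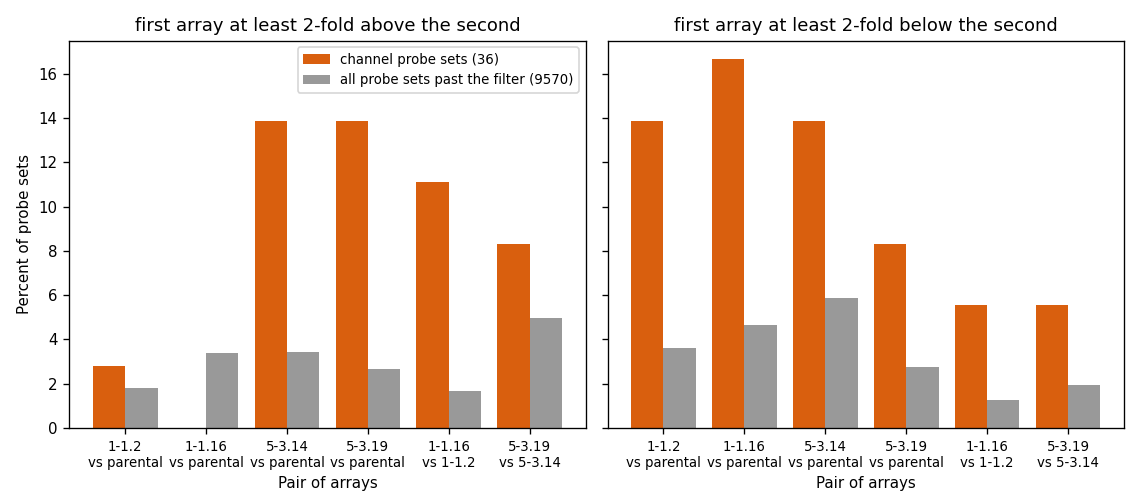
Percent of probe sets at least 2-fold apart between pairs of single arrays, for the 36 channel probe sets (orange) and for all 9570 past the filter (grey). The channel share below the parental array was 16.7% in clone 1-1.16, where 4.65% of all were, and its share above was 0. Among those below, Kcnma1 and the Cacna1a probe sets read under 200 in that clone, so their folds are not told from background.

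Clones of the same set also differed. Clone 1-1.16 was at least 2-fold above 1-1.2 for 4 channel probe sets (1 of Cacna1a, Kcnip1, Kcnj14 and Kcnk2; 1.67% of all) and below it for 2 (Kcnma1 and Scn3a; 1.26% of all). Clone 5-3.19 was at least 2-fold above 5-3.14 for 3 (Cacna2d1, Kcnab3 and Scn7a; 4.98% of all) and below it for 2 (1 of Kcnk6, and Kcnmb4; 1.92% of all). The 4 that were higher in 1-1.16 read 105 to 152 in 1-1.2, and Kcnma1 read 107 in 1-1.16. Kcnab3 read 107 in 5-3.14 and Kcnmb4 183 in 5-3.19. These values are under 200, so the folds that rest on them are not told from background. In 6 channel genes 1 array stood at least 2-fold from the nearest other: Cacna2d1, Kcnk6, Kcnma1, Kcnmb4, Scn3a and Scn7a, where 3.89% of all probe sets did. The lone array was a different one from gene to gene: 5-3.14 for Cacna2d1 and Kcnk6, 5-3.19 for Kcnmb4 and Scn7a, 1-1.16 for Scn3a and the parental array for Kcnma1.

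Clone 5-3.19 and the parental array often had the highest levels together. They were the 2 highest arrays for 9 channel probe sets, where 12.6% of all probe sets had this pattern: 2 of Cacna1a, and Cacna1d, Cacnb3, Kcnab3, Kcnh6, Scn3a, Scn3b and Scn7a. Of these, Kcnab3 and Cacna1a probe set 1386939_a_at averaged under 200 on the other arrays. They passed the limit only through the parental array and 5-3.19, so the limit itself favoured this pattern. Clone 5-3.19 and the parental array were the 2 lowest for 2, Kcnh3 and 1 of Kcnk6, where 14.3% of all were. Clone 1-1.16 was the lowest array for 13 of the 36, and of all probe sets it was lowest for 17.9%. The neuron marker list had 9 of 10 genes measured and all 9 above the limit. Its summed level was 18918 on the parental array, 15849.7 to 18041 in set 1-1 and 16168 to 18926 in set 5-3. The sum was highest on 5-3.19 and the parental array and lowest in 1-1.16, but single genes differed. Only Dcx and Tubb3 had 5-3.19 and the parental array highest, while Snap25, the brightest, had the parental array lowest (5057). The part of the list in the channel levels was not tested. Within that list limma called Nefl and Nefm, which encode neurofilament proteins, lower in set 5-3 (adjusted p = 0.0401 each), where 0.23% of all probe sets were called lower. Over the whole list 5 of 9 genes had a fitted difference above 0 and 4 below.

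The genes that work with the channels were read from 3 lists, with the brightest probe set for each gene. Of 27 channel partners and regulators, 20 were measured and 14 were above the limit; limma called none, with 9 above 0 and 5 below in set 5-3 against set 1-1, and 6 above and 8 below in the clones against the parental array. Calm2, which encodes the calcium sensor calmodulin, read 14575 to 20209, and Snap25, a fusion protein that also binds calcium channels, 5057 to 8675. Of 54 other ion channel genes, 27 of 46 measured were above the limit, with 15 above 0 and 12 below between the sets, 12 above and 15 below against the parental array, and none called. The mitochondrial porin genes Vdac2 and Vdac3 in that list read 8631 to 14598 and 9522 to 11288.

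Ion pumps and exchangers of the plasma membrane restore the gradients that the channels run down. Of 30 listed genes, 16 of 25 measured were above the limit, and 12 of the 16 had a fitted difference below 0 in the clones against the parental array, with a median of −0.47; 8 were below it in all 4 clones and 3 above it. Over all probe sets the median was 0.01, with 19.6% below the parental array in all 4 clones and 18.4% above. Limma called none of them in either comparison. The sodium pump subunit genes Atp1b1 and Atp1b3 read 11646 to 13861 and 2858 to 3627.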

How the data were processed

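Total RNA of 5 lines was measured on single-colour rat arrays, 1 for each line. The deposited values are linear intensities, 1 for each probe set on an array. How the authors extracted them (software, background correction, detection calls) is not given in the sources used here. A trimmed mean, leaving out 2% at each end, was nearly equal on all arrays, so the deposited intensities were used without further scaling. After 57 control probe sets were left out, 15866 remained; 12783 had 1 gene symbol in the platform table, and all 155 channel probe sets matched the GRCr8 gene table. Signals were taken as log2(signal + 21.8), the offset being the 10th percentile of positive signals. Probe sets with a mean of at least 200 over the arrays (9570) were fitted with limma 3.58.1 in R 4.3.3 (lmFit, eBayes with an intensity trend, Benjamini-Hochberg, threshold 0.05), tested first on simulated data. The clones were compared with the parental line as 1 group of 4 against 1 array, which is assumed to vary like the clones; the sets were compared with 3 groups, which leaves 2 residual degrees of freedom. Pairs of arrays were compared by counts at least 2-fold apart. Full values were given for probe sets that passed either test, that stood at least 2-fold apart as a group or as 1 array, that had 1 of the 8 highest mean signals, or that belonged to Kcnj11, Kcnma1, Cacna1a, Cacna1c, Cacna1d, Cacna2d1 or Scn3a. Of the listed partner genes the 3 with the highest mean signal could be named. The members and lists were chosen with earlier results of these data known. Nothing in the labels says whether the arrays of a set are more than separate clones, and p-values measure the spread between them. Promoter sequences are from RefSeq, assembly GRCr8. Alternatives covered scaling, offset, filter, variance model, grouping, fold limit and each clone left out.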

Additional observations from a re-analysis of the deposited data

Results flagged for a closer look

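The lowest or highest of the 4 clones was compared with the rest by Dixon's ratio, its gap to the nearest clone over the range of the clones on the log2 scale, for 36 channel probe sets. It passed the 95% critical value for 2 of them, and chance alone passes about 1 in 20. For Cacna2d1, clone 5-3.14 (630.4) lay below the other clones with a ratio of 0.880. For Kcnma1, clone 1-1.16 (107) lay below the others with a ratio of 0.853. That value is under 200, so this ratio is not told from background. The ratio takes the 4 clones as 1 group, although they form 2 sets.

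In 2 probe sets, both clones of set 1-1 were above the parental array and both of set 5-3 below it. They were probe set 1369035_a_at of Kcnj6, with a log2 difference between the sets of −0.45 (limma adjusted p = 0.487), and Cacna2d3, with −0.78 (adjusted p = 0.391). Cacna2d3 averaged 171 in set 5-3, under 200, so the size of its difference is not told from background. The share of all probe sets with this pattern was not counted, so the 2 are not read as a trait of the channel genes. That the sets lie on opposite sides of the parental array was not tested. The other Kcnj6 probe set above the limit had all 4 clones below the parental array.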

How the results depend on the processing

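Under the alternatives for scaling, offset, filter, variance model and grouping, no channel probe set was called in either limma comparison. Leaving out a clone gave 0 to 1 calls between the sets: Scn7a without 5-3.14 and Cacna2d1 without 5-3.19. In those fits 226 and 232 of all 9570 probe sets were called, against 42 with all clones, and set 5-3 is a lone clone assumed to vary like set 1-1. No clone left out gave a call against the parental array. Of 44 fitted differences followed through 618 alternative values, 6 changed sign, all between the sets and all when a clone was left out. Over the clones left out, set 5-3 minus set 1-1 ranged from −0.28 to 0.33 for Cacna1d, from −0.30 to 0.50 for Kcnj11 (1369782_a_at), from −0.18 to 0.017 for Cacna1c, from −0.30 to 0.45 for Kcnk6 (1370776_a_at), from −0.061 to 0.97 for Kcnma1 and from −0.32 to 0.74 for Cacna1a (1398459_at).

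Counts of channel probe sets at least 2-fold apart moved with the limits, which change what is counted. Against the parental array there were 6, 6, 10 and 8 in 1-1.2, 1-1.16, 5-3.14 and 5-3.19. With a mean signal of at least 500 they were 2, 3, 4 and 3, and with no filter 27, 30, 42 and 38. With a 3-fold limit they were 1, 3, 3 and 3, and with a 1.5-fold limit 11, 16 and 16 for the first 3 clones. Between 1-1.16 and 1-1.2 there were 6, with 1 at a mean of 500, 24 unfiltered, 0 at 3-fold and 2 with the offset 4 times larger. Between 5-3.19 and 5-3.14 there were 5, with 2 at a mean of 500, 27 unfiltered, 12 at 1.5-fold and 1 at 3-fold. The median fold from lowest to highest array was 1.75 with a mean of at least 500, where that of all probe sets was 1.58.

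With 1 array per line, no value here has a repeat of the same clone, and the comparison with the parental line rests on 1 array. Signals under 200 cannot be separated from background, since no detection calls were used, and the fold of a dim probe set is damped by the offset. No paired analysis was possible because the labels give the clones of the sets no shared replicate numbers.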
